A study of Mus musculus with 6 samples.

Results

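The genes examined were 10 vasoactive peptide and receptor genes, namely Agt, Ace, Edn1 and Ptgs2 on the side of ligands and enzymes and Agtr1a, Agtr1b, Ednra, Ednrb, Avpr1a and Adra1d on the side of receptors. They were chosen as the angiotensin, endothelin, vasopressin and adrenergic genes that signal to mesangial contraction, and they are 10 of 22367 protein-coding genes of the GENCODE vM1 annotation on mouse build mm9. Every peak with its summit inside a gene or within 10 kb on either side was taken, and peaks from different libraries sharing 1 bp or more made up a region. This gave 180 peaks in 46 regions, of 170444 regions in the whole series.

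The study applied methylated DNA immunoprecipitation sequencing (MeDIP-seq), in which an antibody against methylated cytosine pulls down sheared DNA before sequencing, to mouse primary mesangial cells. All 6 libraries came from cells grown in high glucose (25.5 mM) with 20% serum and used between passages 3 and 6. In 3 libraries the cells had received transforming growth factor β1 (TGF-β1) at 10 ng/ml for 72 h, and the other 3 were controls. The sources do not say whether the libraries of a group came from separate cultures or animals. The p-values therefore judge differences only against the spread between these libraries. A passaged primary culture can also hold other glomerular cells.

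Mesangial cells are contractile pericyte-like cells of the glomerulus. Angiotensin II, endothelin-1, vasopressin and catecholamines bind receptors coupled to Gq proteins on these cells, which raise intracellular calcium and contract the cell, while prostaglandins made by cyclooxygenase modulate the response. Cytosine methylation in mammals sits mostly at CpG dinucleotides. CpG-rich promoters are as a rule unmethylated, whereas gene bodies and repeated elements are commonly methylated.

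None of the 10 genes had a peak in its promoter in any library, taking the promoter as 2 kb upstream to 500 bp downstream of the gene's start. Over all protein-coding genes 19.2% had such a peak in at least 1 library. The share was 22.8% for genes with a promoter CpG observed/expected ratio from 0.3 to 0.6, where 6 of the 10 genes lay, 15.5% below 0.3, where Ednra, Agtr1b and Agt lay, and 19.0% at or above 0.6, where Adra1d lay. The observed/expected ratio compares the CpGs counted with those that the C and G content alone would give. The ends of the range are shown here as the 150 bases before the gene's start, on the gene's strand from 5′ to 3′ with each CpG in capitals. Adra1d had the highest promoter ratio of the 10 genes (0.615, with 136 CpGs in the 2.5 kb window) and Agt the lowest (0.168, with 30 CpGs), and neither carried a peak there.
Adra1d, chr2:131388022-131388171, minus strand: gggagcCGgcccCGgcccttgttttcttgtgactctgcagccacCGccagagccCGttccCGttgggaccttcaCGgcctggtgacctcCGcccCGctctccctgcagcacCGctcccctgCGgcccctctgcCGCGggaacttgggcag
Agt, chr8:127093607-127093756, minus strand: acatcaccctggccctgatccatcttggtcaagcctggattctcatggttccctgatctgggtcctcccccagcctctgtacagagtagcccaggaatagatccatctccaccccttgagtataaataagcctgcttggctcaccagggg

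The 150 bases held 12 CpGs at Adra1d and 0 at Agt. The summit nearest to a start lay 711 bp inside Adra1d and was called in 1 library. The distance from the start to the nearest summit had a median of 4674 bp over the 10 genes and 3802 bp over all protein-coding genes, and it reached 51125 bp at Agtr1b. Absence of a peak means that no position passed the call at this depth. The lowest pileup called in a library was 8 to 10 overlapping fragments, so weaker methylation in these promoters would not have been listed.

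The libraries held 9407103 to 11494356 reads in the controls and 12634300 to 13291419 with TGF-β1, so every treated library was deeper than every control. Peaks per library ran from 81473 to 105520. The library with the fewest peaks, control 1, also had the smallest share of summits in coding exons (6.56%, against 7.27% to 9.35% in the other libraries) and the lowest median G+C content of its peaks (47.7%, against 47.9% to 48.8%). Promoter peaks were found at 2 of 6 mesangial marker genes, 1 of 4 podocyte, 3 of 4 endothelial, 0 of 4 tubule and both of the 2 leukocyte markers found of 3 listed. A promoter peak does not measure expression, so these counts do not show which cells were present.

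Over the 10 genes the libraries held 25, 30 and 35 peaks in the controls and 32, 28 and 30 with TGF-β1. The means were 30 ± 5 and 30 ± 2 (SD, n = 3), and the groups overlapped. Divided by reads (peaks per 1000000 reads, called read-scaled from here on, as are pileups divided in the same way), the controls had 2.42, 3.19 and 3.04 peaks and the treated libraries 2.51, 2.22 and 2.26. By position, 33 of the 46 regions lay in a gene body and 13 in a flank, and by annotation 20 lay in introns, 11 in coding exons and 2 in 3′ untranslated exons. All 6 libraries called 16 of the regions (34.8%, against 24.5% of all regions), and 9 were called in 1 library only (19.6%, against 27.3% of all regions). In the map of peaks by distance from the gene start, marks lie within the genes and in both flanks, and the promoter bands are empty.

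**Figure D1:**
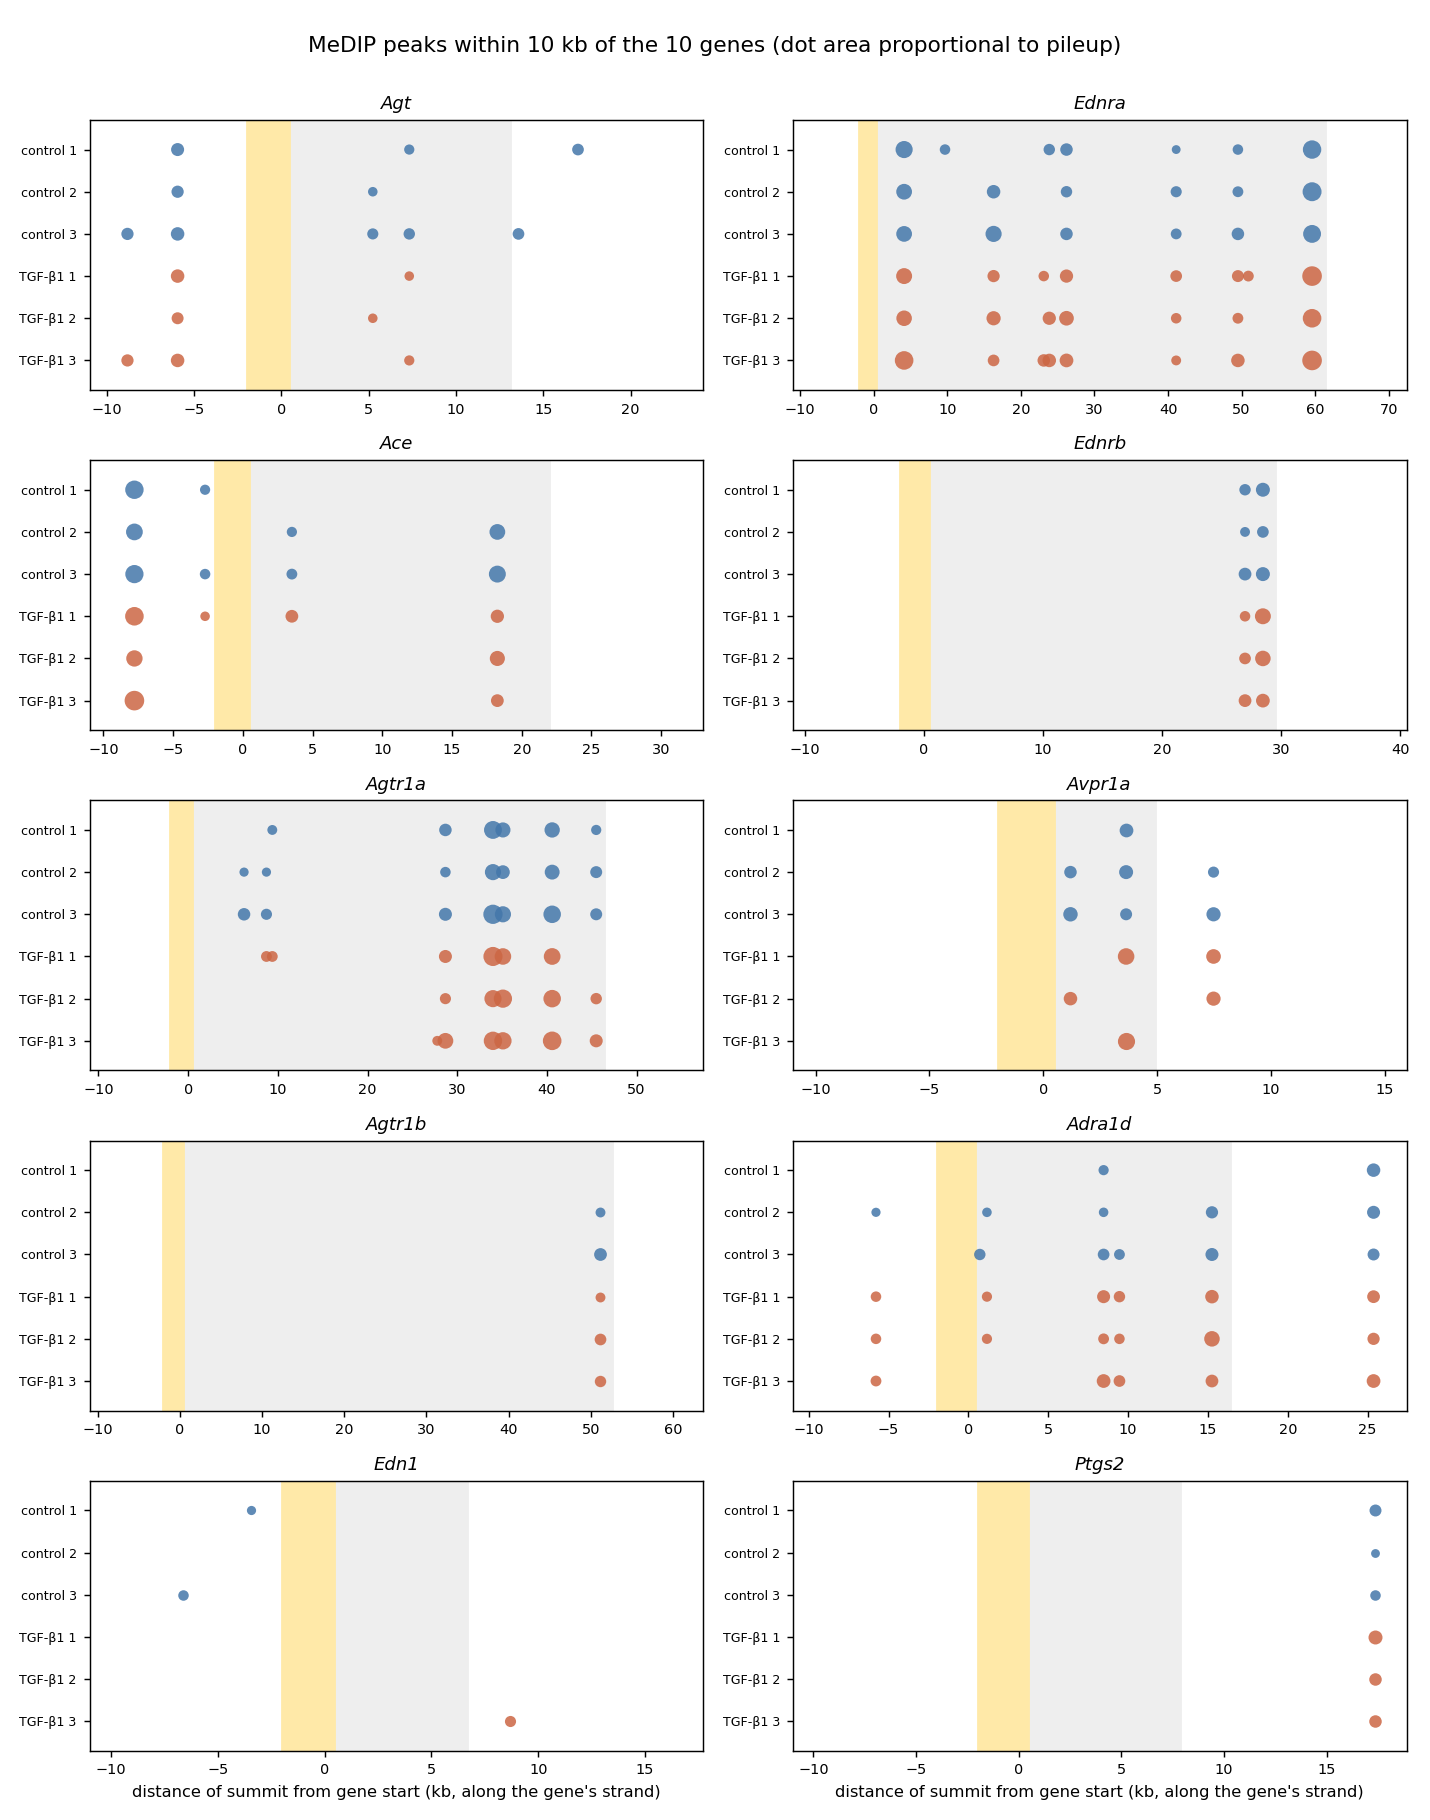
Peaks at each gene by library; the x axis is the distance of the summit from the gene's start in kb along the gene's strand, each row is a library (blue control, orange TGF-β1), and dot area is proportional to pileup. The grey band is the gene body and the yellow band the promoter from 2 kb upstream to 500 bp downstream; no dot lies in a yellow band.

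No gene had peak counts that separated the groups (0 of 10, against 3.74% of all protein-coding genes in either direction). The TGF-β1 mean was the higher at 3 of the 10 genes, the lower at 5 and equal at 2. Over all protein-coding genes it was the higher at 51.0% and the lower at 18.9%. The median difference was −0.17 peaks over the 10 genes and 0.33 over all protein-coding genes. The largest differences were at Adra1d, with 2, 5 and 5 peaks in the controls and 6, 6 and 5 with TGF-β1 (two-sided exact permutation test, unadjusted p = 0.30), and at Ednra, with 7, 6 and 6 against 8, 7 and 8 (exact permutation p = 0.20). Agtr1a went the other way, with 6, 7 and 7 against 6, 5 and 6 (exact permutation p = 0.30). With 3 libraries against 3 the smallest p this test can give is 0.1. The read-scaled counts of Agtr1a, Ednrb and Ptgs2 were lower in all 3 treated libraries than in any control, although Ednrb had 2 peaks and Ptgs2 1 peak in every library, and on that scale 13.0% of all genes separated in one direction or the other.

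**Figure D2:**
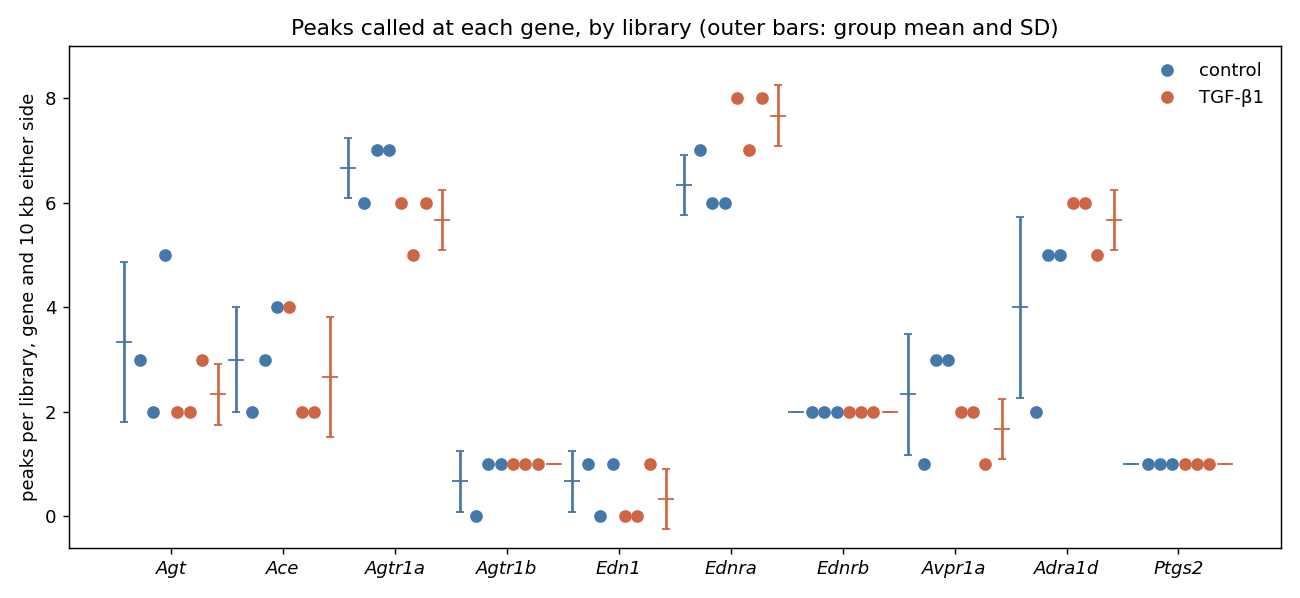
Number of peaks called at each gene (y axis, peaks per library in the gene and 10 kb on either side) in the 3 control (blue) and 3 TGF-β1 libraries (orange). The outer bars give each group's mean and SD; the groups touch or overlap at all 10 genes, and every library has 2 peaks at Ednrb and 1 at Ptgs2.

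Pileups were compared by limma on log2 pileup, centred on each library's median, over the 41744 regions called in all 6 libraries. Of these, 0 passed an adjusted p of 0.05 (0%) and 1744 passed an unadjusted p of 0.05 (4.18%). Among the 16 regions at the 10 genes, 0 passed either. An adjusted p of 0.01 together with a log2 difference above 2 could then only leave 0, here and over all regions tested. The treated libraries were higher at 7 and lower at 9 of the 16, with a median log2 difference of −0.057, against −0.0047 over all regions tested. The 95% intervals of the 16 differences reached from 0.644-fold to 1.86-fold at their extremes, and limma draws their width partly from all regions tested. They cover only regions called in all 6 libraries. A change large enough to remove a call could not enter, so larger changes elsewhere at these genes are not excluded. The deposited pileups, which are not scaled for depth, had a higher treated mean in all 16, and at 3 of them every treated library lay above every control, beside 14.6% of all regions in that direction. Read-scaled, none of the 3 still separated.

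**Figure D3:**
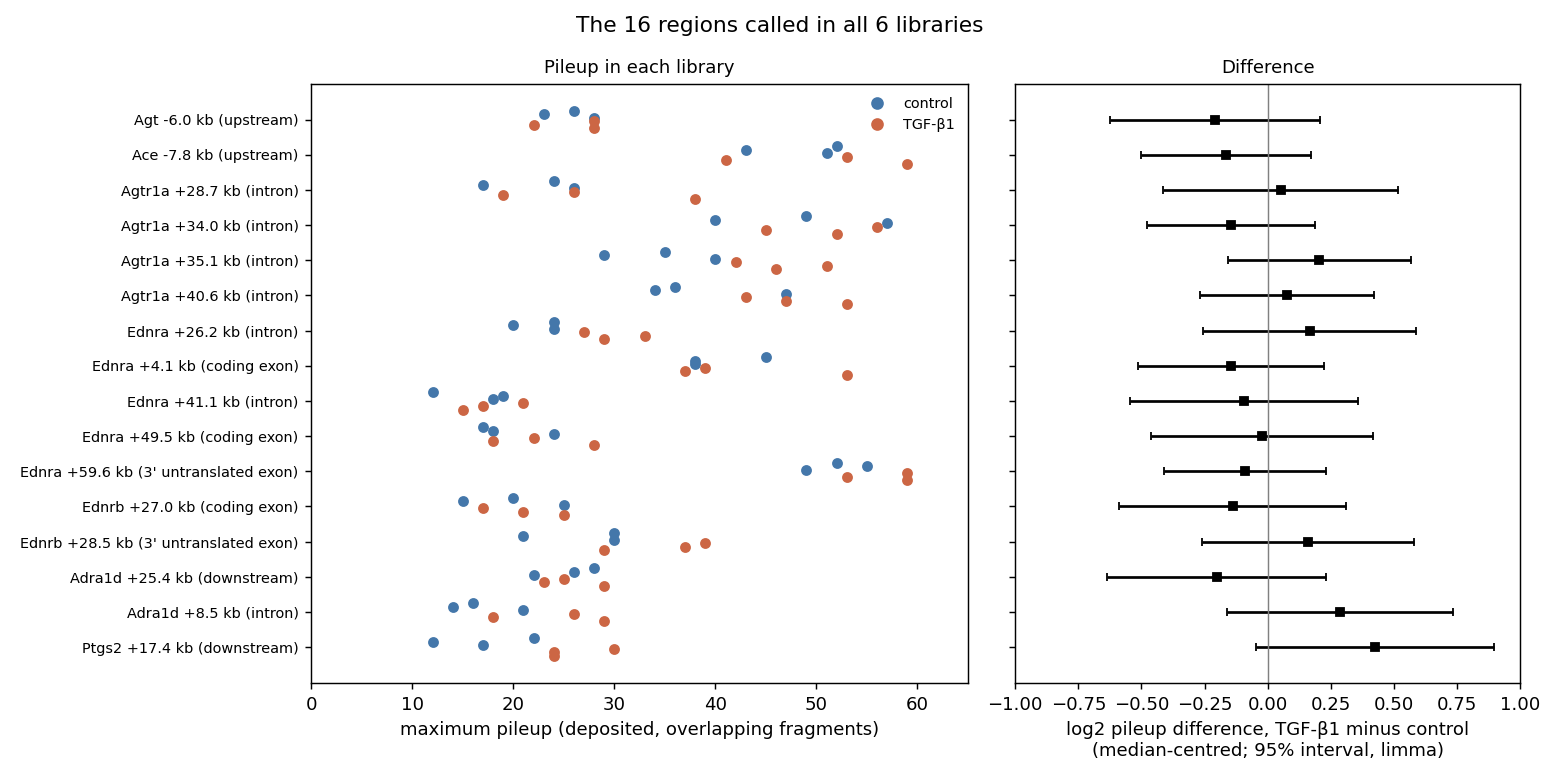
The 16 regions called in all 6 libraries, named by gene and distance of the summit from the gene's start. The left panel shows the deposited maximum pileup in each library (blue control, orange TGF-β1) and the right panel the log2 difference, TGF-β1 minus control, after median centring, with its 95% interval from limma; all 16 intervals include 0.

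Angiotensinogen, encoded by Agt (chr8:127080434-127093606, minus strand), is the precursor that renin cleaves to angiotensin I. It had 6 regions, with 3, 2 and 5 peaks in the controls and 2, 2 and 3 with TGF-β1. Only the region centred at −5952 bp (chr8:127099300-127099827, upstream of the gene) was called throughout. Its pileups were 26, 23 and 28 in the controls and 28, 22 and 28 with TGF-β1, so the groups overlapped (log2 difference after centring −0.21, SE 0.20, limma adjusted p = 0.999). Read-scaled, these pileups were 2.52, 2.44 and 2.44 against 2.20, 1.74 and 2.11, lower in every treated library, as were those of 10.4% of all regions called in all 6 libraries. The coding part of exon 2 of transcript Agt-201 carried a region of 16 CpGs called in 3 libraries, at 14 and 19 in controls 2 and 3 and at 14 in TGF-β1 2.

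An intronic region of Agt held few CpGs. It covered 696 bp of intron 2 (chr8:127085812-127086507), contained 2 CpGs, and was called in control 1 (pileup 16), control 3 (20), TGF-β1 1 (14) and TGF-β1 3 (16). On the gene's strand 94.5% of its bases were A or G. It is shown for its few CpGs, as the 150 bases at the summit on the gene's strand with CpG in capitals.
Agt +7.3 kb, chr8:127086209-127086358, minus strand: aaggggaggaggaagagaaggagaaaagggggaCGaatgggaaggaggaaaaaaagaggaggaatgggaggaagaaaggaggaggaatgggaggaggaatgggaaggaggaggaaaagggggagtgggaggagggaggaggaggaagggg

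Of all regions of the series, 3.24% had 2 CpGs or fewer. A base composition is a property of the reference sequence and does not show what the antibody bound.

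Ace (chr11:105829259-105851278, plus strand) encodes angiotensin-converting enzyme, which turns angiotensin I into angiotensin II. Its strongest region lay in the upstream flank at −7779 bp (chr11:105821196-105821710), at 52, 43 and 51 in the controls and 53, 41 and 59 with TGF-β1. The groups overlapped (log2 difference −0.17, SE 0.17, limma adjusted p = 0.999). The region in intron 22 (chr11:105847293-105847743, 16 CpGs) was called in 5 libraries, at 38 and 44 in controls 2 and 3 and at 27, 35 and 25 with TGF-β1, and it was not called in control 1. The 3 treated values were all below the 2 control values. A limma fit without control 1, which admits this region, gave a log2 difference of −0.67 (SE 0.21, unadjusted p = 0.0029, adjusted p = 0.703). With all 6 libraries and the missing call set to the lowest pileup called in control 1, the log2 difference was 0.03 (SE 0.51, limma unadjusted p = 0.959). That value depends on the pileup filled in, since the depth of control 1 at this region is unknown, so the direction is undecided. A further region in coding exon 5 (chr11:105832595-105832953) was called in control 2 (16), control 3 (18) and TGF-β1 1 (25). Its summit lay 136 bp from the start of the shorter transcript Ace-002, so that counting the start of any annotated transcript as a promoter gave 1 of 10 genes with a promoter peak. The share of all genes under that wider definition is not given here. The antisense transcript Gm11651 overlaps the same position, and immunoprecipitated DNA carries no strand. The summit of the intron 22 region is shown as the Ace summit with the most CpGs (10 in 150 bases).
Ace +18.2 kb, chr11:105847432-105847581, plus strand: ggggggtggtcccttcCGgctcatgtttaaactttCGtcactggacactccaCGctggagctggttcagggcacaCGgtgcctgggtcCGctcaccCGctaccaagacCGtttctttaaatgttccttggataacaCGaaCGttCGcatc

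Edn1 (chr13:42396639-42403358, plus strand), which encodes the precursor of endothelin-1, had no peak in its 6.72 kb body in any library. Its 3 regions all lay in the flanks and each was called once, at −3432 bp in control 1 (pileup 13), at −6637 bp in control 3 (17) and at 8698 bp in TGF-β1 3 (19). The body held 118 CpGs, or 17.6 per kb, against a median of 12.1 per kb over all protein-coding genes. Ptgs2 (chr1:151947254-151955140, plus strand) encodes the inducible cyclooxygenase 2 and likewise had no peak in its body, which held 7.73 CpGs per kb. Of all protein-coding genes, 31.4% had no region in the body.

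The 1 region of Ptgs2 lay downstream at 17355 bp from the start (chr1:151964391-151964881) and was called in every library. Its pileups were 22, 12 and 17 in the controls and 30, 24 and 24 with TGF-β1, so all treated values were above all control values before scaling (exact permutation p = 0.10). Read-scaled, they were 2.13, 1.28 and 1.48 against 2.35, 1.90 and 1.81, which overlap. After centring it had the largest difference of the 16 shared regions, a log2 difference of 0.43 (SE 0.23, limma unadjusted p = 0.075, adjusted p = 0.999), or 1.34-fold with a 95% interval from 0.969 to 1.86. Without control 1 the difference was 0.69 (SE 0.24, unadjusted p = 0.0066, adjusted p = 0.762). In that fit 3 of the 20 regions of the 10 genes had an unadjusted limma p under 0.05, against 6.15% of all regions tested, and 0 passed an adjusted p of 0.05. Among the 3, the Ace +18.2 kb and Ednra +16.3 kb regions had no call in control 1 and entered only because it was left out. The Ptgs2 summit held 6 CpGs in the 150 bases shown, which no other place in the genome matched over a read length of 49 bases.
Ptgs2 +17.4 kb, chr1:151964534-151964683, plus strand: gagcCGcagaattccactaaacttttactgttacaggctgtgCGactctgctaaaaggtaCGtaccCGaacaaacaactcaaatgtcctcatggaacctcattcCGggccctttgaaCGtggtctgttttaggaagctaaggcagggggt

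The angiotensin II type 1 receptor is encoded in mice by a pair of genes, Agtr1a (chr13:30428310-30474736, plus strand) and Agtr1b (chr3:20213395-20266099, minus strand). They are of like length, 46.4 and 52.7 kb, but Agtr1a had 9 regions and Agtr1b had 1. The bodies held 617 CpGs (13.3 per kb) and 277 CpGs (5.26 per kb). Agtr1a had 1.94 regions per 10 kb of body and Agtr1b 0.190, against a median of 0.886 over all protein-coding genes.

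Of the Agtr1a regions, 7 lay in intron 2 of transcript Agtr1a-001, and 3 of these, at 33975, 35094 and 40575 bp from the start, had the highest pileups of the gene. The region at 33975 bp was at 49, 40 and 57 in the controls and 56, 45 and 52 with TGF-β1. The one at 35094 bp was at 35, 29 and 40 against 42, 51 and 46. The one at 40575 bp was at 36, 34 and 47 against 43, 47 and 53. At 35094 bp the deposited pileups did not overlap (exact permutation p = 0.10), but read-scaled they were 3.39, 3.08 and 3.48 against 3.29, 4.04 and 3.46 and did overlap. After centring the log2 differences of the 3 regions were −0.15, 0.20 and 0.08 (SE 0.16, 0.18 and 0.17, limma adjusted p = 0.999 for each).

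These 3 regions lay in sequence that is repeated in the genome. Of the 49-base windows in them, 81.8%, 100% and 96.5% occurred at least once more in mm9, against under 10% in 39 of the 46 regions and none in 32. The regions at 33975 and 40575 bp shared an exact run of 339 bases with 17 CpGs, in the same orientation and 6768 bp apart, which occurred nowhere else. The last 150 bases of this run are shown, since a read from within it fits both places.
Agtr1a shared run, chr13:30462186-30462335 and chr13:30468954-30469103, plus strand: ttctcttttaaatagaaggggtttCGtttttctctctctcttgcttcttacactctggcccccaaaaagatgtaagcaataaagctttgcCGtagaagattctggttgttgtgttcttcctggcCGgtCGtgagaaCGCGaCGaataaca

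A stretch of 30 bases of this run recurred 1672 times in the genome, among them in the Agt region at −8825 bp, where it lies at chr8:127102286-127102315 on the other strand.
Shared 30 bases: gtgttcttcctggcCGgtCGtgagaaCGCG

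That Agt region, inside the neighbouring gene Capn9, had 94.9% of its read-length windows elsewhere and was called in control 3 and TGF-β1 3, both at a pileup of 23. A read that lies wholly inside such a window has more than one place in the genome, although the authors describe keeping only uniquely mapped reads. How the pileups of these regions arose under that filter was not tested. Outside the repeated stretches, the Agtr1a region at 28677 bp had no window elsewhere and stood at 24, 17 and 26 in the controls and 26, 19 and 38 with TGF-β1 (log2 difference 0.05, SE 0.23, limma adjusted p = 0.999). The first intron held a region at 6230 bp (chr13:30434317-30434714) that was called in controls 2 and 3, at 13 and 24, and in no treated library. It was the only region of the 10 genes with 2 more control than treated calls, and 2.89% of all regions had this pattern.

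The plot of pileup against CpG count sets these regions beside the others. Over the 16 regions called in all libraries, the number of CpGs within 150 bp of the summit, from 5 to 19, and the mean pileup had a Pearson r of 0.54 and a Spearman rho of 0.48. These describe 16 regions measured in the same libraries, 3 of them in repeated sequence.

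**Figure D4:**
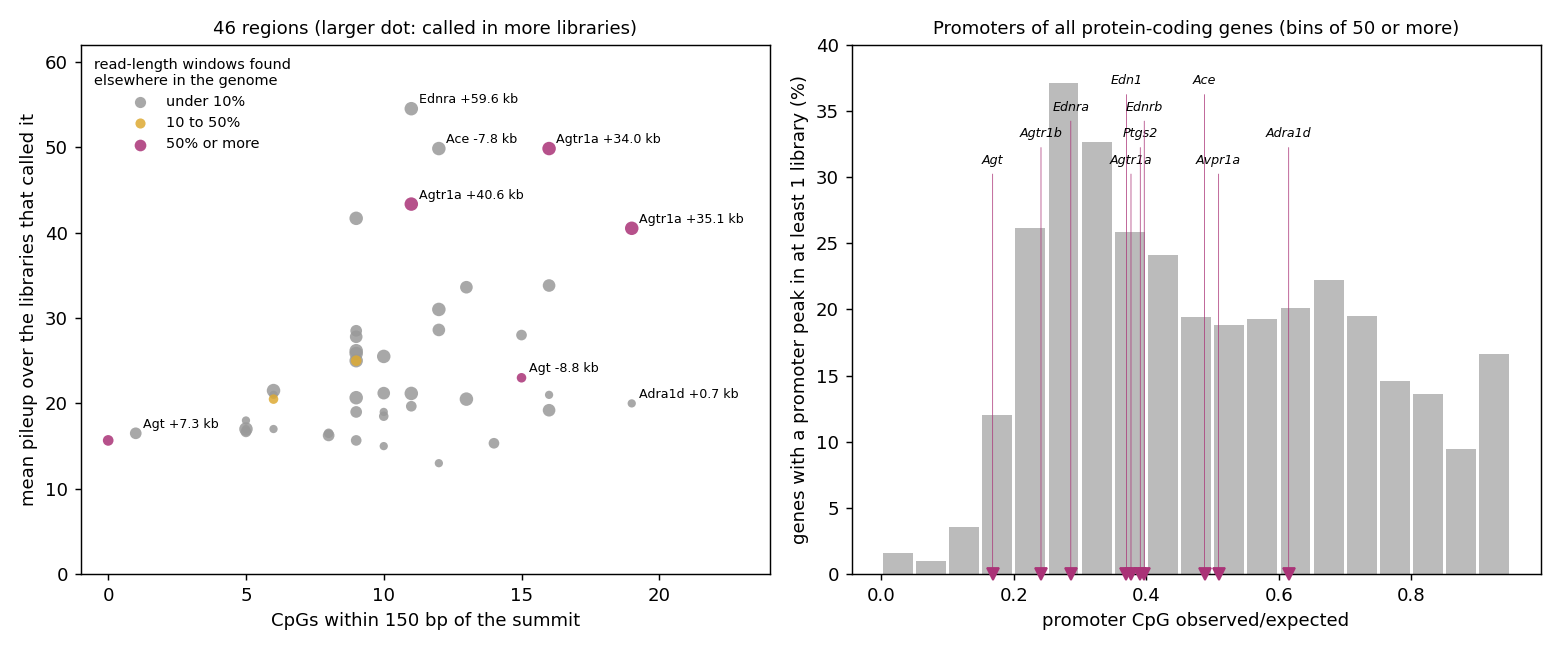
Left, mean deposited pileup of each of the 46 regions over the libraries that called it, against the CpGs within 150 bp of its summit, coloured by the share of its 49-base windows found elsewhere in the genome; the 3 repeated Agtr1a regions sit above 40 and the Agt region with 1 CpG near 16. Right, percent of all protein-coding genes with a promoter peak in at least 1 library by promoter CpG observed/expected ratio (grey bars), with the 10 genes, none of which has one, as triangles on the axis.

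The coding sequences of Agtr1a and Agtr1b are each 1077 bp in 1 exon and are identical at 90.8% of positions. Each carried a region, but at different places. The Agtr1a summit lay at coding position 977 and had pileups of 16, 22 and 22 in the controls and 20 and 26 in TGF-β1 2 and 3, with no call in TGF-β1 1. The Agtr1b summit lay at position 435 and had pileups of 15 and 25 in controls 2 and 3 and 15, 21 and 20 with TGF-β1, with no call in control 1. Neither region separated the groups. The 150 coding bases at each summit are shown for both receptors, since the comparison turns on which CpGs the genes share.
Agtr1a at its own summit, chr13:30473724-30473873, plus strand: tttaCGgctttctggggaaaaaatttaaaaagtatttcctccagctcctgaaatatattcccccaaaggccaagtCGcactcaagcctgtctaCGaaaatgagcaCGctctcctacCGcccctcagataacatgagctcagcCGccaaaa
Agtr1b at the same positions, chr3:20214312-20214461, minus strand: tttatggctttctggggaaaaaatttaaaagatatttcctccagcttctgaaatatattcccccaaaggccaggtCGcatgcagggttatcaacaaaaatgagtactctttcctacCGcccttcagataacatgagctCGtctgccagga
Agtr1b at its own summit, chr3:20214854-20215003, minus strand: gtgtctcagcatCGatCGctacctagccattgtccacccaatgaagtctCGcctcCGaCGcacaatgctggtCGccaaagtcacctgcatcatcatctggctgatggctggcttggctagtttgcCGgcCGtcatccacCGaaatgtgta
Agtr1a at the same positions, chr13:30473182-30473331, plus strand: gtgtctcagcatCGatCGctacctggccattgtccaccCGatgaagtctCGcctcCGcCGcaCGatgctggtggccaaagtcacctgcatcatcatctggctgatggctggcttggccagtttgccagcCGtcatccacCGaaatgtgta

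At the Agtr1a summit the windows had 6 CpGs in Agtr1a and 3 in Agtr1b, with 2 at the same position and 85.3% identity. At the Agtr1b summit both windows had 9 CpGs, of which 7 coincided, with 95.3% identity. In Agtr1a no peak was called over that second window, although it holds as many CpGs. Of the 49-base windows of the whole Agtr1b region, 17 of 387 also occurred in Agtr1a, and in the window at the Agtr1b summit 0 of 102 were identical in both genes.

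The endothelin A receptor, which couples endothelin-1 to contraction and growth, is encoded by Ednra (chr8:80186930-80248363, minus strand). It had 10 regions, the most of the 10 genes, all in its 61.4 kb body, which also lies within the oppositely transcribed lincRNA gene 4933431K23Rik. Ednra was also the longest of the 10 genes, and its 1.63 regions per 10 kb of body lay at the 71.9th percentile of all protein-coding genes. The region with the highest pileups was in the 3′ untranslated part of exon 8 of Ednra-001 (chr8:80188479-80189088), at 52, 55 and 49 in the controls and 59, 53 and 59 with TGF-β1. The groups overlapped, with a log2 difference after centring of −0.09 (SE 0.16, limma adjusted p = 0.999). Coding exon 2, at 4130 bp from the start, carried a region at 45, 38 and 38 in the controls and 39, 37 and 53 with TGF-β1. Coding exon 4 carried one at 17, 18 and 24 against 22, 18 and 28. Neither separated the groups (log2 differences −0.14 and −0.02, SE 0.18 and 0.22, limma adjusted p = 0.999 for both). The 2 coding summits are shown as the positions where the receptor's own coding DNA was recovered in every library.
Ednra exon 2, chr8:80244158-80244307, minus strand: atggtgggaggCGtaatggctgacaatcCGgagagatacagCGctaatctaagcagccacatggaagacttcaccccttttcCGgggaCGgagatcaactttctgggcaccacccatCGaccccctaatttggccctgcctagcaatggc
Ednra exon 4, chr8:80198791-80198940, minus strand: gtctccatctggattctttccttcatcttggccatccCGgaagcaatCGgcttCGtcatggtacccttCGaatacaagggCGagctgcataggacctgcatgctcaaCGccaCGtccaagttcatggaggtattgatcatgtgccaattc

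These windows held 6 and 7 CpGs. In the introns of Ednra, the region at 26197 bp was called in all libraries at 24, 20 and 24 in the controls and 27, 33 and 29 with TGF-β1. These deposited values did not overlap (exact permutation p = 0.10), while read-scaled they were 2.33, 2.13 and 2.09 against 2.12, 2.61 and 2.18 and did. The region at 41110 bp was the lowest of the 16, at 12, 19 and 18 against 21, 17 and 15. The region at 16290 bp was not called in control 1 and stood at 28 and 40 in controls 2 and 3 and at 23, 31 and 21 with TGF-β1. A fit without control 1 gave it a log2 difference of −0.61 (SE 0.23, limma unadjusted p = 0.013, adjusted p = 0.762). With all 6 libraries and the missing call set in the same way as for Ace, both groups had a mean centred log2 pileup of 0.19 (limma unadjusted p = 0.9999).

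A region at 23112 bp of Ednra was called in TGF-β1 1 (17) and TGF-β1 3 (24) and in no control. It was 1 of 3 regions of the 10 genes with 2 more treated than control calls, a pattern of 6.90% of all regions, and 20.8% of its read-length windows occurred elsewhere. The neighbouring region at 23860 bp, with 34.9% of windows elsewhere, was called in control 1 (20), TGF-β1 2 (27) and TGF-β1 3 (28). Single libraries called the regions at 50923 bp (TGF-β1 1, 18) and 9688 bp (control 1, 17).

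Ednrb (chr14:104213842-104243390, minus strand), the endothelin B receptor, had 2 regions, both in exon 8, the last exon of Ednrb-201, and both called in every library. The coding region (17 CpGs) was at 20, 15 and 25 in the controls and 17, 21 and 25 with TGF-β1. The region in the 3′ untranslated part (16 CpGs) was at 30, 21 and 30 against 39, 37 and 29. The log2 differences after centring were −0.14 and 0.16 (SE 0.22 and 0.21, limma adjusted p = 0.999 for both), and the groups overlapped at each. The nearest summit lay 26904 bp from the start, so the remaining body held no peak in any library, whereas in Ednra regions occurred from 4130 bp to 59581 bp.

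Avpr1a (chr10:121885555-121890509, plus strand) encodes the vasopressin V1a receptor. Its 4.96 kb body had 2 regions, or 4.04 per 10 kb, the highest of the 10 genes and at the 95.8th percentile of all protein-coding genes, with 25.6 CpGs per kb. The region in coding exon 1 (chr10:121886468-121886980, 21 CpGs) was called in control 2 (24), control 3 (32) and TGF-β1 2 (28). The region in coding exon 2 was called in 5 libraries, at 29, 30 and 22 in the controls and at 42 and 45 in TGF-β1 1 and 3, both above every control, with no call in TGF-β1 2. The libraries that lacked the exon 1 region were control 1, TGF-β1 1 and TGF-β1 3. The downstream region at 7476 bp was called in controls 2 and 3 (19 and 31) and in TGF-β1 1 and 2 (33 and 31). Both coding summits are shown because different treated libraries called them.
Avpr1a exon 1, chr10:121886674-121886823, plus strand: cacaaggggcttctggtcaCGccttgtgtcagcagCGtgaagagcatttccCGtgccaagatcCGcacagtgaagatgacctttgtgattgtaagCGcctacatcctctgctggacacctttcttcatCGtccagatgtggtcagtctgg
Avpr1a exon 2, chr10:121889117-121889266, plus strand: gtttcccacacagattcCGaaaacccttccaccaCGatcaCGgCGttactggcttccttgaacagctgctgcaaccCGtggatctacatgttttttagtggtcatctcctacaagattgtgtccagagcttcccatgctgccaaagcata

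They held 6 and 5 CpGs and no 49-base window of either region occurred elsewhere. In a fit on regions called in at least 3 libraries, where a missing call took the lowest pileup called in that library, the log2 differences were −0.68 (SE 0.59) for exon 1 and −0.30 (SE 0.52) for exon 2. The second value has the opposite sign to the called pileups because the missing call of TGF-β1 2 was set to that floor. At exon 1 the called pileups had a mean of 28 in each group. The missing calls of control 1, TGF-β1 1 and TGF-β1 3 were set to the floor there, so the first value depends on it too.

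Adra1d (chr2:131371586-131388021, minus strand), the α1D-adrenergic receptor, had 7 regions and 3.04 per 10 kb of body, at the 92.8th percentile. Control 1 had 2 peaks there and each of the other 5 libraries had 5 or 6. The intron region at 8464 bp was called in every library at 16, 14 and 21 in the controls and 26, 18 and 29 with TGF-β1 (log2 difference 0.29, SE 0.22, limma unadjusted p = 0.20, adjusted p = 0.999). The downstream region at 25369 bp was at 28, 26 and 22 against 25, 23 and 29 (log2 difference −0.20, SE 0.21, limma adjusted p = 0.999). The groups overlapped at both. The intron region at 15246 bp was called in 5 libraries, at 23 and 26 in controls 2 and 3 and 28, 37 and 25 with TGF-β1.

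Adra1d held the other 2 regions with 2 more treated than control calls. The intron region at 9456 bp was called at 20, 17 and 21 with TGF-β1 and at 18 in control 3 only. The upstream region at −5791 bp, which overlaps the annotated miRNA gene AL831731.1, was called at 17, 17 and 18 with TGF-β1 and at 13 in control 2 only. In the fit on regions called in at least 3 libraries their log2 differences were 0.63 (SE 0.40) and 0.63 (SE 0.37), and none of the 33 regions of the 10 genes in that fit had an unadjusted limma p under 0.05. Missing control calls took the lowest pileup called in that library. The sign of these 2 differences was therefore largely set by the calls that picked the regions out. The called pileups had means of 18 in control and 19.3 with TGF-β1 at 9456 bp, and 13 and 17.3 at −5791 bp. No region of the 10 genes was called in all 3 libraries of one group and in none of the other, a pattern that 2.04% of the regions called in at least 3 libraries showed. Both summits are shown, the second with a run of TG repeats beside its CpGs.
Adra1d +9.5 kb, chr2:131378490-131378639, minus strand: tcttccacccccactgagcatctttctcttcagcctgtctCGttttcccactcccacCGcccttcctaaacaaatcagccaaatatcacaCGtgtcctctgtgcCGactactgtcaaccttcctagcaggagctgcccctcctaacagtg
Adra1d −5.8 kb, chr2:131393737-131393886, minus strand: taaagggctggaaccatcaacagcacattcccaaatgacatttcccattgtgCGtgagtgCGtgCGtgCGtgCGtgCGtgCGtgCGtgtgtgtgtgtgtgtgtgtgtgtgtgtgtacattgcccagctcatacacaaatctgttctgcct

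Coding exon 1 of Adra1d carried a region at 1158 bp, called at 14 in control 2 and at 16 in each of TGF-β1 1 and 2, and one at 711 bp, called at 20 in control 3. The latter had 27 CpGs, or 69.1 per kb, the highest density of the 46 regions, against a median of 27.9 per kb over the 46 and 23.7 per kb over all regions.

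Of the 11 regions in coding exons, 5, 10 and 10 were called in the controls and 7, 8 and 6 with TGF-β1. Of the 35 other regions, 20, 20 and 25 were called in the controls and 25, 20 and 24 with TGF-β1. Control 1 and TGF-β1 3 called the fewest coding regions, and over all peaks they also had the smallest shares in coding exons, 6.56% and 7.27%, against 8.67% and 9.35% in controls 2 and 3 and 8.14% and 9.18% in TGF-β1 1 and 2. The part of this library difference in the calls at Agtr1b, Avpr1a, Ace and Agt was not tested.

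Among 47 other genes of the same pathways, taken with their roles as ligands, converting enzymes, receptors and effectors, 11 (23.4%) had a promoter peak in at least 1 library and 0 in all 6. Over all protein-coding genes 19.2% had a promoter peak in at least 1 library, and the share in all 6 is not given here. Oxtr, the oxytocin receptor, and Ptges, a prostaglandin E synthase, had one in 5 libraries, and Adra2a, an inhibitory adrenergic receptor, in 4. Peak counts did not overlap between the groups at 1 of the 47, beside 3.74% of all genes. This was Gna11, a Gq-family α subunit through which these receptors signal, with 4 peaks in each control and 3 in each treated library (exact permutation p = 0.10, unadjusted). The median difference over the 47 genes was 0.33 peaks, equal to that over all protein-coding genes.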

How the data were processed

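MeDIP-seq peak lists of 6 libraries, 3 control and 3 TGF-β1, were used as deposited. The authors aligned reads to mm9 with BWA, kept unique reads without duplicates and called peaks per library with MACS2 (2.1.0.20150731 per the file headers, q cutoff 0.01, no input control). Each deposited peak carries a pileup signal, a −log10 p-value and q-value, and a fold enrichment ratio. Read numbers came from the headers. The 10 genes and the lists of other genes were chosen with earlier results of these data known. Peaks overlapping by 1 bp were joined in Python 3.11.15. The highest pileup per library was compared on log2 scale with limma 3.58.1 (eBayes with trend, Benjamini-Hochberg over 41744 regions), which was tested on simulated data. Counts were compared by exact permutation. Regions were named if called in at least 5 libraries, in 2 more libraries of one group or with an unadjusted p under 0.05. Others were described after their values were seen, including a low-CpG region and the repeated regions, for which 49-base windows were matched to the NCBIM37 assembly, the source of all sequences. The depth at positions without a peak is unknown. The sequence of 1 region is not reported here.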

Additional observations from a re-analysis of the deposited data

How the results depend on the processing

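No region of the 10 genes passed an adjusted p of 0.05 under any of the 13 alternatives, including read-scaled pileup, fold enrichment, stricter calls and each library left out in turn (0 to 0). The number with an unadjusted p under 0.05 was 0 in 12 of the 13, and 3 of 20 without control replicate 1, namely the Ptgs2, Ace +18.2 kb and Ednra +16.3 kb regions, beside 3080 of 50088 regions (6.15%), so leaving out a library gave 0 to 3. The Ace and Ednra regions, not called in control replicate 1, entered that fit only because it was left out. Genes with non-overlapping peak counts numbered 3 when read-scaled (all lower with TGF-β1, beside 13.0% of all genes), 1 at a fold enrichment of at least 5 (Ednra, higher, beside 2.80%), and 0 to 3 with a library left out. Without control replicate 1 these were Agtr1a and Avpr1a, lower, and Ednra, higher (beside 6.997%). Without TGF-β1 replicate 2 it was Ednra (beside 8.56%), and without TGF-β1 replicate 3 Adra1d (beside 6.84%), both higher. With the replicate block, counting genes whose 3 same-numbered differences share a sign, there was 1 (Ednra, beside 8.66% of all genes). The labels do not say whether libraries with the same number were paired. The correlations of deviations were −0.05, 0.04 and −0.13, which cannot decide this with 3 libraries per group. The block left 0 regions past an adjusted and 0 past an unadjusted p, and a difference of 0 in peaks per library. Regions present throughout one group and absent from the other numbered 0 to 1 with a library left out, namely Agtr1a +6.2 kb without control replicate 1, Adra1d −5.8 kb without control replicate 2, Adra1d +9.5 kb without control replicate 3 and Ednra +23.1 kb without TGF-β1 replicate 2. Promoters with a peak numbered 1 (Ace) with the start of any transcript. For this count, and for the call pattern with a library left out, no share over all genes or regions is given here. They therefore cannot be placed against the rest of the genome. The difference in peaks per library over the 10 genes was −6.50 when scaled to the mean read number, and the cause of these changes was not tested. Of 128 alternative values of the 16 pileup differences, 118 moved by less than the spread between libraries. The 10 that moved by more all came from scaling to the mean read number. Unscaled, the treated mean was higher in 16 regions and lower in 0. Scaled, it was higher in 6 and lower in 10, so the direction depended on scaling. The replicate block cannot change a mean difference and left each as it was. Peak lists give no depth below the call, so differences in uncalled regions were not detectable.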
